A study of Sus scrofa with 14 samples.

Results

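Smooth muscle and mural cell genes were followed through the differentiation of pig pluripotent stem cells into muscle. The set held 9 genes: *ACTA2*, *TAGLN*, *CNN1*, *LMOD1*, *SMTN*, *MYL9*, *MYH11*, *MYLK* and *PDGFRB*. They were taken by symbol from the deposited table of TPM values (a transcript level scaled for gene length and for the library's total), and 9 of 9 were found among its 15031 rows. The table held 14 RNA-seq libraries in 5 groups, and every group was labelled WT. pgEpiSCs are pluripotent stem cells of the pig pre-gastrulation epiblast, grown on mitomycin-treated mouse embryonic fibroblast feeders in a medium with CHIR99021, IWR-1-endo, WH-4-023, LIF, activin A and FGF2. They were sequenced with no differentiation treatment (day 0), from cultures labelled high (pgEpiSCs-high, 3 libraries) and low (pgEpiSCs-Low, 3 libraries) in passage. pgEpiSCs-MPCs (2 libraries, day 8) were myogenic progenitor cells made from pgEpiSCs without serum. Their induction began with CHIR99021, a GSK3 inhibitor that activates WNT signalling, and SB431542, an inhibitor of TGF-beta type I receptors, and went on with HGF, IGF-1, FGF2 and the BMP receptor inhibitor LDN193189. pgEpiSCs-MCs (3 libraries, day 44) were the muscle cells that followed after culture in IGF-1, in HGF with IGF-1, and in N2 medium. MPC-Dif (3 libraries, day 4) were differentiated cells of another origin: pMuSCs, muscle stem cells from the dorsal muscle of 1-week-old Nongda Xiang pigs, enriched by differential adhesion, expanded in fetal bovine serum with FGF2 and differentiated in horse serum. The number of animals behind MPC-Dif was not given, and MPC-Dif differed from pgEpiSCs-MCs in origin, serum, time and medium together.

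Smooth muscle cells contract when calcium activates myosin light chain kinase (*MYLK*), which phosphorylates the regulatory light chain (*MYL9*) of smooth muscle myosin (*MYH11*) so that it pulls on filaments of alpha smooth muscle actin (*ACTA2*). Transgelin (*TAGLN*, also called SM22 alpha), calponin (*CNN1*), leiomodin (*LMOD1*) and smoothelin (*SMTN*) bind these actin filaments. Many of these genes are switched on by serum response factor (SRF) bound to a CArG box, together with its coactivators myocardin and the MRTFs, and several of them are also used by myofibroblasts and by immature skeletal and cardiac muscle. PDGFRB, the receptor for PDGF-B, marks pericytes and vascular smooth muscle cells, jointly called mural cells, and is also found on fibroblasts.

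Because SRF binding at promoters is the known control of many of these genes, the promoters were searched for its site, and those of 8 genes are described. Promoter windows of 300 bases before the RefSeq gene start were read from the Sscrofa11.1 genome, and CArG boxes (10 bases: CC, 6 bases of A or T, GG, searched on both strands) were sought in them. *MYL9* held 1 box, with its first base 70 bases before the start. *ACTA2* held no perfect box but 2 boxes with 1 deviation among the 6 central bases, 125 and 75 bases before the start. The windows of *CNN1*, *LMOD1*, *SMTN*, *MYH11*, *MYLK* and *PDGFRB* held neither form. Sequence farther upstream, in introns or before other transcript starts was not searched, so sites there would be missed. Of 19559 windows of protein-coding genes, 1.6% held a perfect box, and 8.49% held a perfect box or a box with 1 deviation. The windows of *ACTA2* and *MYL9* are printed 5′ to 3′ in the direction of transcription, with the boxes in capitals; *ACTA2* lies on the minus strand (chr14:100886733-100887032), and *MYL9* (chr17:39787865-39788164) lies on the plus strand.
ACTA2: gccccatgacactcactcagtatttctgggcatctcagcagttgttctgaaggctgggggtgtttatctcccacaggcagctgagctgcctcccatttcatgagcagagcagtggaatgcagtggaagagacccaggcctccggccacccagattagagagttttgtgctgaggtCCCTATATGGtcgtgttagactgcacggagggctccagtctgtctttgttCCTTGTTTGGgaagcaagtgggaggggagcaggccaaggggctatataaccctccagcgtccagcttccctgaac
MYL9: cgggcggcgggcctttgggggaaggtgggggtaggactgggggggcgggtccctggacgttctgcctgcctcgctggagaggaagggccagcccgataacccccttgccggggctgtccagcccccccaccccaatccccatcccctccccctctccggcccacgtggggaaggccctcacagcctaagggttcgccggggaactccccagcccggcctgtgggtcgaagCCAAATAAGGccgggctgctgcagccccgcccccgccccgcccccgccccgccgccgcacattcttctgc

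The libraries held 12150 to 13781 genes above 0.5 TPM, and mitochondrially encoded transcripts made up 22.7% to 24.9% of pgEpiSCs-high, 19.8% to 23.3% of pgEpiSCs-Low, 15.8% to 17.1% of pgEpiSCs-MPCs, 6.07% to 6.61% of pgEpiSCs-MCs and 6.74% to 7.10% of MPC-Dif. TPM values keep no read depth, so the counting error behind each value is unknown. The group names were set against defining genes. *NANOG*, a pluripotency factor, averaged 244.3 TPM in pgEpiSCs-high and 218 TPM in pgEpiSCs-Low, and was at or below 0.342 TPM on average in the other groups. *LIN28A*, a further pluripotency gene, was still at 72.8 and 104 TPM in the pgEpiSCs-MPCs libraries, against 1198 to 1514 TPM in those of pgEpiSCs. Of 7 pluripotency genes, 6 were called lower in pgEpiSCs-MCs than in pgEpiSCs, beside 30.9% of all tested genes lower and 50.8% higher. Among the 6 was *DPPA4*, which passed the filter on low values through pgEpiSCs-Low alone. But *SOX2*, a factor shared with neural progenitors, was called higher, with 118 TPM in pgEpiSCs-MCs and 79.2 TPM in pgEpiSCs (adjusted p = 0.0002054). *SOX2* also stood at 85.4 and 93.4 TPM in the pgEpiSCs-MPCs libraries. *PAX7*, a factor of muscle progenitors, averaged 23.0 TPM in pgEpiSCs-MPCs, and *MYOG*, which drives myoblast differentiation, averaged 54.8 TPM in pgEpiSCs-MCs and 212 TPM in MPC-Dif. *MYOD1* averaged 12.6 TPM in pgEpiSCs-MPCs, 9.74 TPM in pgEpiSCs-MCs and 1.035 TPM in MPC-Dif. Of 15 skeletal muscle genes, 6 were called higher and 2 lower in pgEpiSCs-MPCs than in pgEpiSCs, with *MYF5* among the lower. Beside this, 47.5% of all tested genes were called higher and 21.4% lower. In pgEpiSCs-MCs 15 were higher (50.8% of all tested genes), and in MPC-Dif 13 were higher and 1 lower (37.4% and 44.1%). The mural gene *RGS5* averaged 23.9 TPM in MPC-Dif but at most 0.141 TPM in the other groups. Other mural genes ran the other way: *KCNJ8* averaged 4.93 TPM in pgEpiSCs-MCs and 0.140 TPM in MPC-Dif, and *MCAM* 16.9 TPM and 6.53 TPM. Of 16 mural genes, 8 were called higher in pgEpiSCs-MCs than in MPC-Dif and 7 lower, beside 50.0% and 29.1% of all tested genes. These were bulk samples, in which a change in the share of a cell type and a change of RNA within its cells cannot be told apart. Whether the libraries within a group stem from independent cultures or animals was not given, so the tests measure the spread between libraries only.

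*ACTA2* was nearly silent in pgEpiSCs and among the most abundant transcripts of both kinds of differentiated muscle culture. Its levels in the 3 libraries of pgEpiSCs-high were 1.69, 3.49 and 1.87 TPM, and in pgEpiSCs-Low 5.42, 5.32 and 4.58 TPM. The pgEpiSCs-MPCs libraries had 410.0 and 383 TPM, the pgEpiSCs-MCs libraries 2166, 2058 and 1991 TPM, and the MPC-Dif libraries 2070.1, 2568 and 2742 TPM. By mean TPM, *ACTA2* ranked 10751 of 15031 genes in pgEpiSCs-high, 9636 in pgEpiSCs-Low, 299 in pgEpiSCs-MPCs, 51 in the day 44 pgEpiSCs-MCs and 52 in MPC-Dif. The libraries of pgEpiSCs-MCs and MPC-Dif were intermixed, and the other groups did not overlap with any group.

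*TAGLN*, an actin-bundling protein abundant in smooth muscle, followed a similar course from a higher start. It had 20.7, 20.8 and 23.3 TPM in pgEpiSCs-high and 46.6, 38.7 and 42.2 TPM in pgEpiSCs-Low. It reached 1468 and 1582 TPM in pgEpiSCs-MPCs, 2527, 2666 and 2580 TPM in pgEpiSCs-MCs and 1917, 2109 and 2348 TPM in MPC-Dif. The 5 groups did not overlap, and pgEpiSCs-MCs stood highest. *TAGLN* ranked 64 of 15031 genes in pgEpiSCs-MPCs, 39 in the day 44 pgEpiSCs-MCs and 61 in MPC-Dif.

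*CNN1*, an actin-binding protein of differentiated smooth muscle that restrains myosin, was high in cells derived from pgEpiSCs and not in MPC-Dif. Its levels were 3.81, 4.33 and 2.37 TPM in pgEpiSCs-high and 8.55, 6.62 and 6.93 TPM in pgEpiSCs-Low. They were 32.1 and 25.4 TPM in pgEpiSCs-MPCs, 88.1, 86.1 and 80.1 TPM in pgEpiSCs-MCs and 5.13, 5.66 and 7.45 TPM in MPC-Dif. The MPC-Dif libraries overlapped with those of pgEpiSCs-Low (adjusted p = 0.193). *MYH11*, the heavy chain of smooth muscle myosin and one of the genes most restricted to that tissue, was likewise highest in pgEpiSCs-MCs and next in pgEpiSCs-MPCs, at far lower levels. It averaged 0.651 ± 0.185 TPM in pgEpiSCs-high, 0.496 ± 0.144 TPM in pgEpiSCs-Low and 0.638 ± 0.164 TPM in MPC-Dif (SD, n = 3 each), and these 3 groups overlapped. The pgEpiSCs-MPCs libraries had 3.66 and 3.72 TPM, and the pgEpiSCs-MCs libraries 9.19, 8.46 and 7.68 TPM. At its highest, in pgEpiSCs-MCs, *MYH11* ranked 9713 of 15031 genes.

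*LMOD1*, which nucleates actin filaments in smooth muscle, and *MYLK* were highest in MPC-Dif. *LMOD1* averaged 0.088 ± 0.034 TPM in pgEpiSCs-high and 0.131 ± 0.164 TPM in pgEpiSCs-Low (SD, n = 3 each), and 1 pgEpiSCs-Low library was listed at 0. It had 3.54 and 4.47 TPM in pgEpiSCs-MPCs, 9.43, 8.52 and 9.74 TPM in pgEpiSCs-MCs and 50.0, 47.0 and 57.9 TPM in MPC-Dif. The *LMOD1* levels of the last 3 groups were fully separated. *MYLK* averaged 3.27 ± 0.353 TPM in pgEpiSCs-high and 2.85 ± 0.397 TPM in pgEpiSCs-Low (SD, n = 3 each), which overlapped. It had 13.7 and 14.9 TPM in pgEpiSCs-MPCs, 7.69, 5.09 and 7.32 TPM in pgEpiSCs-MCs and 30.3, 33.5 and 35.2 TPM in MPC-Dif, so that along the pgEpiSC lineage the highest level stood at day 8.

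*MYL9* also stood highest at day 8. It had 32.5, 38.6 and 38.6 TPM in pgEpiSCs-high, 77.9, 78.9 and 76.6 TPM in pgEpiSCs-Low, 694 and 754 TPM in pgEpiSCs-MPCs, 359.7, 369.9 and 366 TPM in pgEpiSCs-MCs and 562, 599 and 651 TPM in MPC-Dif. The 5 groups did not overlap. *SMTN* was the flattest of the 9 genes: it averaged 15.5 ± 0.501 TPM in pgEpiSCs-high, 17.4 ± 1.40 TPM in pgEpiSCs-Low, 22.9 ± 1.63 TPM in pgEpiSCs-MPCs (n = 2), 14.7 ± 1.04 TPM in pgEpiSCs-MCs and 20.4 ± 1.98 TPM in MPC-Dif (SD, n = 3 in the other groups). Its neighbours in this order mostly failed to separate: adjusted p was 0.148 between pgEpiSCs-MPCs and MPC-Dif, whose libraries did not overlap, 0.233 between pgEpiSCs-high and pgEpiSCs-Low, and 0.492 between pgEpiSCs-MCs and pgEpiSCs-high, while MPC-Dif and pgEpiSCs-Low overlapped at an adjusted p of 0.0435.

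*PDGFRB*, the mural receptor, had 1.37, 1.21 and 1.43 TPM in pgEpiSCs-high and 2.32, 1.70 and 1.12 TPM in pgEpiSCs-Low, which overlapped. It had 58.8 and 63.5 TPM in pgEpiSCs-MPCs, 339, 345 and 353 TPM in pgEpiSCs-MCs and 687, 591 and 624 TPM in MPC-Dif. The groups away from pgEpiSCs were separated from each other, with MPC-Dif highest, and *PDGFRB* ranked 3001 of 15031 genes in pgEpiSCs-MPCs, 369 in the day 44 pgEpiSCs-MCs and 202 in MPC-Dif.

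**Figure D1:**
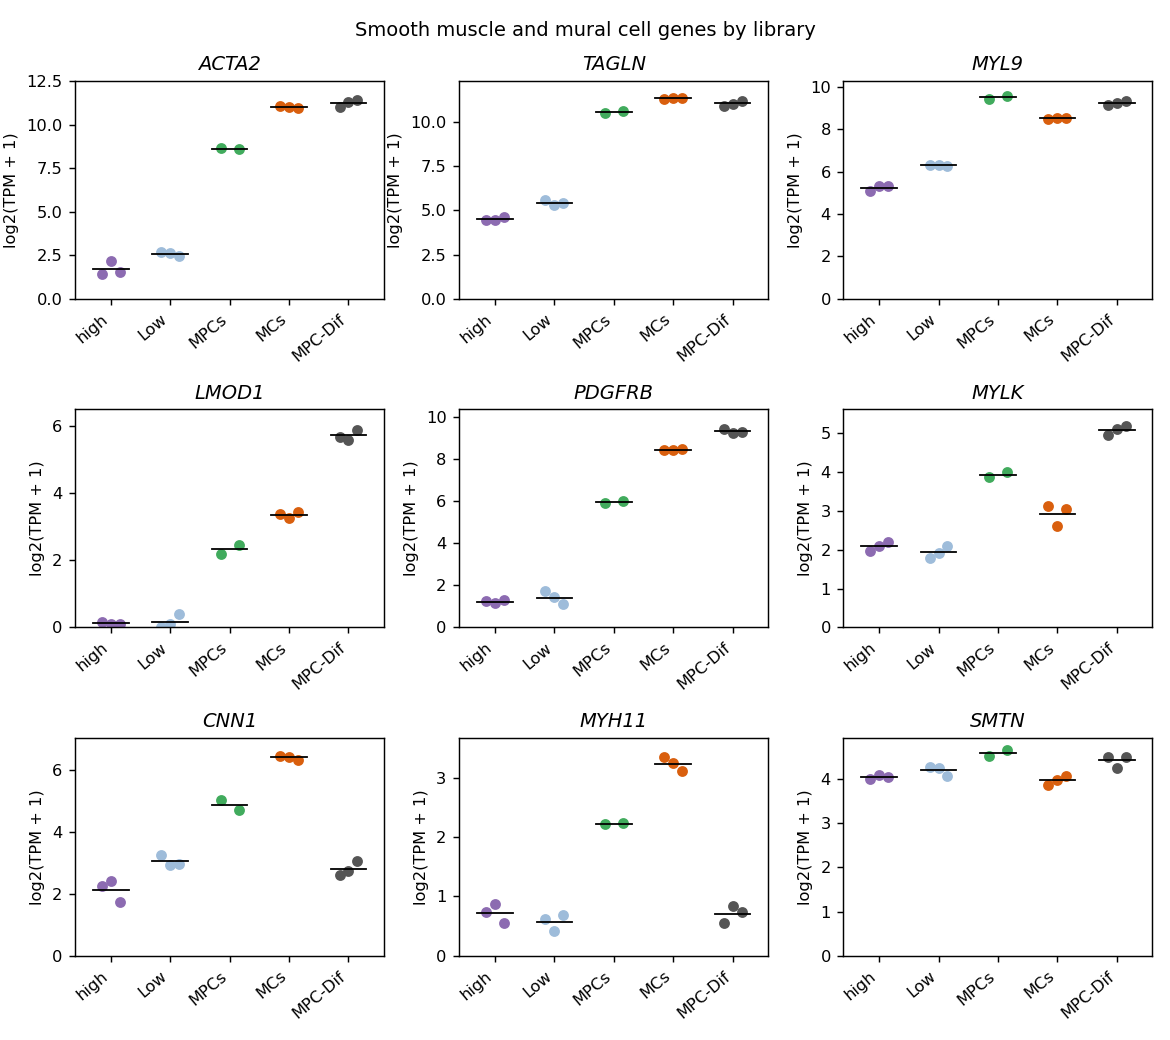
Levels of the 9 genes in each of the 14 libraries, as log2(TPM + 1); points are libraries and lines are group means. *ACTA2*, *TAGLN* and *PDGFRB* were high in pgEpiSCs-MCs and MPC-Dif alike, *CNN1* and *MYH11* in pgEpiSCs-MCs, and *LMOD1* and *MYLK* in MPC-Dif.

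Differences between groups were tested with limma on log2(TPM + 1) over 14957 genes that passed a filter on low values, and a gene was called at a Benjamini-Hochberg adjusted p below 0.05. All 9 genes passed the filter; *LMOD1*, below 0.5 TPM in each pgEpiSC library, passed it through the other groups. Positive log2 values mean a higher level in the group named first, and the added 1 TPM understates the change of genes as low as *LMOD1* and *MYH11*. pgEpiSCs stands for the average of pgEpiSCs-high and pgEpiSCs-Low, each passage weighted alike. The 3 comparisons with pgEpiSCs share these libraries, and those with MPC-Dif share its 3 libraries.

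The first comparison asked which of these genes had changed in the progenitors by day 8. In pgEpiSCs-MPCs against pgEpiSCs, 9 of 9 genes were called higher, where 47.5% of all tested genes were called higher and 21.4% lower. The largest log2 difference was that of *ACTA2*, at 6.48 ± 0.15 (SE, adjusted p = 1.643e-13), with a mean of 396.7 TPM in pgEpiSCs-MPCs and 3.73 TPM in pgEpiSCs. *TAGLN* rose by 5.61 ± 0.08 (adjusted p = 1.516e-15) and *PDGFRB* by 4.64 ± 0.12 (adjusted p = 4.043e-13). *MYL9* differed by 3.74, *CNN1* by 2.28, *LMOD1* by 2.17, *MYLK* by 1.92 and *MYH11* by 1.58, with adjusted p-values between 1.462e-14 and 6.241e-08. *SMTN* rose least, by 0.46 ± 0.09 (adjusted p = 0.0004364), and under 2 other scalings of the libraries this difference shrank to 0.16 (adjusted p = 0.1411, median of ratios) and 0.00 (adjusted p = 0.9767, quantile). The median log2 difference was 2.28 over the 9 genes and 0.24 over all tested genes.

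At day 44, pgEpiSCs-MCs set against pgEpiSCs gave 8 of 9 genes higher and 0 lower, beside 50.8% of all tested genes called higher and 30.9% lower. *ACTA2* differed by 8.86 ± 0.13 on the log2 scale (SE, adjusted p = 5.98e-16), with a mean of 2072 ± 88.6 TPM in pgEpiSCs-MCs (SD, n = 3) and 3.73 ± 1.66 TPM in pgEpiSCs (SD, n = 6), a ratio of 556. *PDGFRB* rose by 7.12 ± 0.10 (adjusted p = 5.229e-16), a 227-fold ratio of mean TPM, and *TAGLN* by 6.37 ± 0.07 (adjusted p = 5.634e-17), an 80.8-fold ratio. *CNN1* was higher by 3.82, *LMOD1* by 3.21, *MYL9* by 2.75 and *MYH11* by 2.59, all with an adjusted p of 2.159e-11 or less. The log2 difference of *MYLK* was smaller, at 0.91 ± 0.12 (adjusted p = 5.305e-06), and under quantile scaling it was 0.11 (adjusted p = 0.4539). *SMTN* differed by -0.15, with a 95% interval of -0.32 to 0.02 (adjusted p = 0.09331), and its libraries overlapped. *SMTN* was called lower under each of the 3 other scalings of the libraries, with log2 differences of -0.37 (median of ratios), -0.67 (quantile) and -0.42 (mitochondrial genes left out), and also against pgEpiSCs-Low alone, at -0.23, and without pgEpiSCs-Low replicate 3, at -0.18. The median over the 9 genes was 3.21, against 0.27 over all tested genes.

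Between day 8 and day 44 the genes divided. In pgEpiSCs-MCs against pgEpiSCs-MPCs, 6 genes were called higher and 3 lower, where 34.5% of all tested genes were called higher and 36.1% lower. The 6 that rose were *PDGFRB* (log2 difference 2.48 ± 0.14, adjusted p = 1.118e-09), *ACTA2* (2.38 ± 0.17, adjusted p = 2.039e-08), *CNN1* (1.54), *LMOD1* (1.04), *MYH11* (1.01) and *TAGLN* (0.76). Mean TPM was 5.65-fold higher for *PDGFRB*, 5.22-fold for *ACTA2*, 2.95-fold for *CNN1* and 1.70-fold for *TAGLN*. The 3 that fell were the kinase *MYLK* (-1.01 ± 0.15, adjusted p = 3.714e-05), its substrate *MYL9* (-0.98 ± 0.08, adjusted p = 4.442e-08) and *SMTN* (-0.61 ± 0.10, adjusted p = 9.642e-05). For each of these 9 genes the libraries of the 2 groups did not overlap, which held for 79.7% of all tested genes.

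MPC-Dif was compared with pgEpiSCs in the same way, and 7 of 9 genes were called higher and 0 lower, beside 37.4% of all tested genes called higher and 44.1% lower. *ACTA2* was higher by 9.10 ± 0.13 on the log2 scale (adjusted p = 2.109e-16), *PDGFRB* by 7.99 ± 0.10 (adjusted p = 7.805e-17), *TAGLN* by 6.08 ± 0.07 (adjusted p = 1.971e-17) and *LMOD1* by 5.57 ± 0.11 (adjusted p = 3.871e-15). *MYL9* rose by 3.47, *MYLK* by 3.07 and *SMTN* by 0.29 (adjusted p = 0.00328, with overlapping libraries). The difference in *SMTN* was 0.17 under quantile scaling (adjusted p = 0.07075) and 0.04 with mitochondrial genes left out (adjusted p = 0.695). *CNN1* differed by 0.21, with a 95% interval of -0.10 to 0.52 (adjusted p = 0.1982), and *MYH11* by 0.06, with an interval of -0.18 to 0.30 (adjusted p = 0.6262). Against pgEpiSCs-high alone, *CNN1* was called higher, at 0.67 (adjusted p = 0.002242), and *MYH11* was called higher under quantile scaling, at 0.35 (adjusted p = 0.01221).

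The muscle cells of the 2 origins were then set against each other. In pgEpiSCs-MCs against MPC-Dif, 3 genes were called higher and 5 lower, where 50.0% of all tested genes were called higher and 29.1% lower. *CNN1* was higher by 3.61 ± 0.17 on the log2 scale (adjusted p = 7.657e-11), with a mean of 84.8 ± 4.13 TPM in pgEpiSCs-MCs and 6.08 ± 1.22 TPM in MPC-Dif (SD, n = 3 each), a 13.9-fold ratio. *MYH11* was higher by 2.53 ± 0.13 (adjusted p = 1.767e-10), with a 13.2-fold ratio of mean TPM, and *TAGLN* by 0.29 ± 0.08 (adjusted p = 0.003757). *LMOD1* was lower by 2.36 on the log2 scale (adjusted p = 4.344e-10), with a mean of 9.23 ± 0.635 TPM in pgEpiSCs-MCs and 51.6 ± 5.63 TPM in MPC-Dif (SD, n = 3 each). *MYLK* (-2.16 ± 0.14, adjusted p = 2.254e-09), *PDGFRB* (-0.87 ± 0.12, adjusted p = 1.269e-05), *MYL9* (-0.72) and *SMTN* (-0.44) were also lower in pgEpiSCs-MCs. *ACTA2* differed by -0.24, with a 95% interval of -0.57 to 0.09 (adjusted p = 0.1685). The calls of *TAGLN* and *ACTA2* depended on the scaling: under median of ratios *TAGLN* stood at -0.07 and *ACTA2* was called lower, at -0.60 (adjusted p = 0.003723), and under quantile scaling *ACTA2* stood at 0.01.

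The day 8 progenitors were also set against MPC-Dif. In pgEpiSCs-MPCs, 3 genes were called higher and 5 lower than in MPC-Dif, beside 50.7% of all tested genes called higher and 28.1% lower. *CNN1* (log2 difference 2.07 ± 0.19, adjusted p = 1.256e-07), *MYH11* (1.52 ± 0.14, adjusted p = 1.707e-07) and *MYL9* (0.26 ± 0.08, adjusted p = 0.006087) were higher in pgEpiSCs-MPCs. Those lower in pgEpiSCs-MPCs were *LMOD1* (-3.39), *PDGFRB* (-3.35), *ACTA2* (-2.62), *MYLK* (-1.15) and *TAGLN* (-0.47), the last of which lost its call under quantile scaling (-0.08, adjusted p = 0.4181). The *MYL9* call was lost without pgEpiSCs-MPCs replicate 2 (0.20, adjusted p = 0.07631), and its sign turned under median of ratios (-0.17). *SMTN* differed by 0.17, with a 95% interval of -0.05 to 0.38 (adjusted p = 0.1484), but was called lower under median of ratios (-0.25, adjusted p = 0.03846) and higher with mitochondrial genes left out (0.32, adjusted p = 0.01366).

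Passage was a further factor within pgEpiSCs. In pgEpiSCs-high against pgEpiSCs-Low, 0 genes were called higher and 4 lower, where 8.36% of all tested genes were called higher and 15.7% lower. *MYL9* fell by 1.07 on the log2 scale (adjusted p = 1.648e-07), *TAGLN* by 0.94 (adjusted p = 1.996e-06), *CNN1* by 0.91 (adjusted p = 0.001514) and *ACTA2* by 0.90 (adjusted p = 0.0008679). For each of the 4 genes every pgEpiSCs-high library lay below every pgEpiSCs-Low library, which held for 22.3% of all tested genes, and mean TPM in pgEpiSCs-Low was 1.97- to 2.17-fold that in pgEpiSCs-high. With the libraries of these 2 groups fitted alone, the *ACTA2* difference had an adjusted p of 0.05802. *PDGFRB*, *SMTN*, *MYLK*, *MYH11* and *LMOD1* differed by -0.19 to 0.15 and were not called, with adjusted p-values of 0.2327 to 0.8612. Without pgEpiSCs-Low replicate 3, *PDGFRB* was called lower, at -0.36 (adjusted p = 0.01648).

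**Figure D2:**
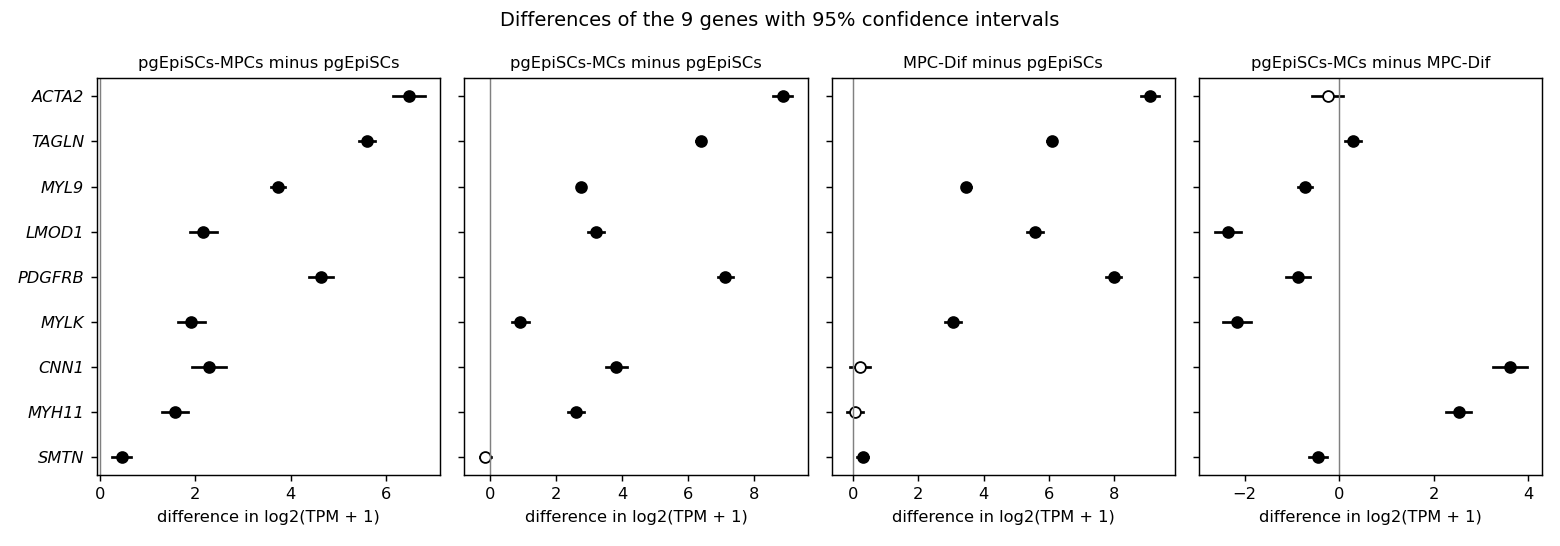
Log2 differences of the 9 genes with 95% intervals in 4 comparisons, tested with limma on log2(TPM + 1); filled points passed an adjusted p of 0.05 and open points did not. *SMTN* lay between -0.44 and 0.46 in these comparisons, *CNN1* and *MYH11* were near 0 in MPC-Dif against pgEpiSCs, and *ACTA2* was near 0 in pgEpiSCs-MCs against MPC-Dif.

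How far the genes moved alike can be described from the libraries themselves. Over the 14 libraries, which share group structure, Pearson's r of log2(TPM + 1) was 0.992 between *ACTA2* and *PDGFRB*, 0.989 between *ACTA2* and *TAGLN*, 0.969 between *CNN1* and *MYH11*, and 0.917 between *LMOD1* and *MYLK*. It was 0.28 between *CNN1* and *LMOD1*, 0.076 between *CNN1* and *MYLK*, and -0.234 between *SMTN* and *MYH11*. The high pairs did not form separate sets. *LMOD1* had a higher r with *PDGFRB* (0.954) and *ACTA2* (0.923) than with *MYLK*, and *MYL9* had 0.961 with *TAGLN*. Among 10150 other genes with a mean of at least 10 TPM in a group, the 5 whose pattern was most like that of *ACTA2* were *PINK1* (r = 0.998), *ILK* (0.998), *RUSC2* (0.996), *PROS1* (0.996) and *BMP1* (0.995). The 5 most like *PDGFRB* were *LPAR1* (0.997), *PDE1C* (0.996), *COL12A1* (0.996), *DAP* (0.996) and *KDELR2* (0.996).

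*ACTA2* belongs to 4 muscle actins that are nearly identical in protein sequence: *ACTA2* of vascular smooth muscle, *ACTG2* of enteric smooth muscle, *ACTA1* of adult skeletal muscle and *ACTC1* of heart and embryonic skeletal muscle. How reads that match several of them were counted was not given, so their shares are uncertain. *ACTA2* was the largest of the 4 in pgEpiSCs-MPCs, pgEpiSCs-MCs and MPC-Dif. It made up 65.8% ± 1.56 of their summed TPM in pgEpiSCs-MPCs (SD, n = 2), 75.4% ± 0.265 in the day 44 pgEpiSCs-MCs and 61.7% ± 3.69 in MPC-Dif (SD, n = 3 each). *ACTC1* made up most of the rest, with 203 TPM in pgEpiSCs-MPCs, 638 ± 21.8 TPM in pgEpiSCs-MCs and 1337 ± 38.5 TPM in MPC-Dif. Of the 4, *ACTA1* differed most between the 2 kinds of muscle cell, with 1.43 ± 0.184 TPM in pgEpiSCs-MCs and 126 ± 3.59 TPM in MPC-Dif (log2 difference -5.71 ± 0.15, adjusted p = 1.197e-13). *ACTG2* had 37.7 ± 2.49 TPM in pgEpiSCs-MCs and 54.5 ± 9.32 TPM in MPC-Dif (log2 difference -0.51, adjusted p = 0.02048). Set beside the cytoplasmic actins *ACTB* and *ACTG1* as well, *ACTA2* made up 3.45% of actin TPM in pgEpiSCs-MPCs, 12.2% in the day 44 pgEpiSCs-MCs and 17.7% in MPC-Dif, against 0.0235% in pgEpiSCs-high and 0.0551% in pgEpiSCs-Low.

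**Figure D3:**
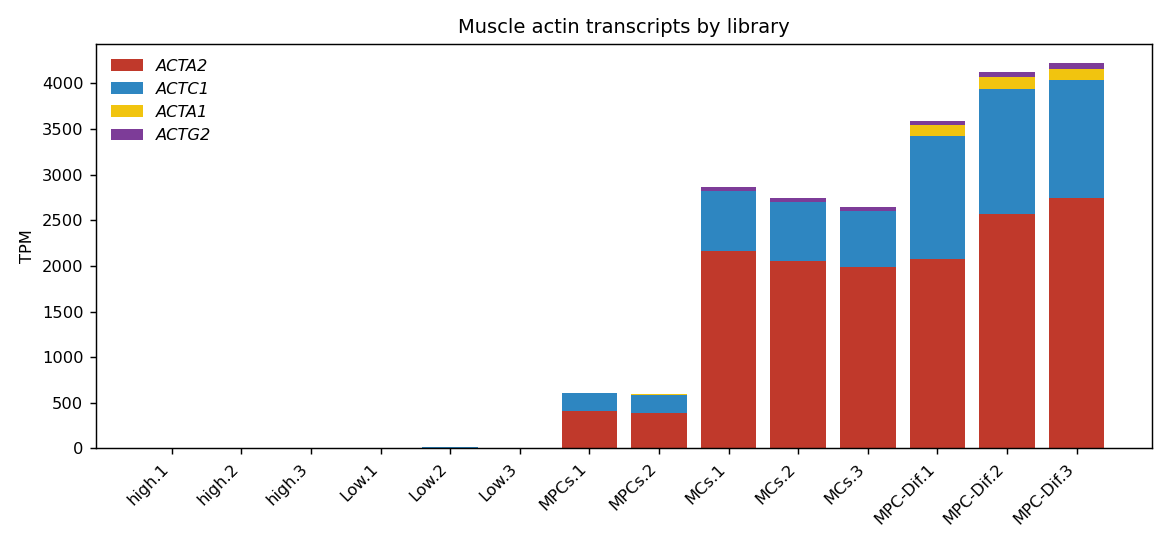
Summed TPM of the 4 muscle actins in each library, with *ACTA2*, *ACTC1*, *ACTA1* and *ACTG2* stacked. *ACTA2* was the largest share in the pgEpiSCs-MPCs, pgEpiSCs-MCs and MPC-Dif libraries, and *ACTA1* was visible in MPC-Dif.

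Relatives of the other genes showed where the smooth muscle form was a large or a small part of its family. *MYL9* made up 28.9% ± 1.96 of the summed TPM of *MYL9* and *MYL12A*, its non-muscle counterpart, in pgEpiSCs-high and 46.8% ± 1.16 in pgEpiSCs-Low. It made up 87.3% ± 0.495 in pgEpiSCs-MPCs, 72.2% ± 0.698 in the day 44 pgEpiSCs-MCs and 64.5% ± 0.651 in MPC-Dif (SD, n = 2 for pgEpiSCs-MPCs and 3 for the others). *CNN1* was a small calponin: it made up 4.93% ± 0.243 of calponin TPM in pgEpiSCs-MCs and 0.796% in MPC-Dif, while the widely expressed *CNN3* had 1581 TPM in pgEpiSCs-MCs and 675 TPM in MPC-Dif, and *CNN2* had 53.6 TPM in pgEpiSCs-MCs and 80.3 TPM in MPC-Dif. *MYH11* made up at most 2.77% of the summed TPM of *MYH11* and the non-muscle heavy chains *MYH9* and *MYH14* in any group, *MYH9* had 463 TPM in pgEpiSCs-MCs and 725 TPM in MPC-Dif, and *MYH14* had 32.9 TPM in pgEpiSCs-MCs and 7.75 TPM in MPC-Dif. The neuronal transgelin *TAGLN3* averaged 194 TPM in pgEpiSCs-MPCs, 148 TPM in pgEpiSCs-MCs and 8.10 TPM in MPC-Dif. *LMOD2* of striated muscle averaged at most 2.29 TPM, the skeletal kinase *MYLK2* at most 0.191 TPM, the cardiac kinase *MYLK3* at most 1.91 TPM and *SMTNL2* at most 3.35 TPM. *TAGLN2*, *MYL12B*, *MYH10*, *LMOD3*, *MYLK4* and *SMTNL1* were not analysed here. Antisense lncRNAs are annotated across *MYL9*, *MYH11*, *LMOD1* and *MYLK*, and since the strand setting of the counting was not given, their reads cannot be told apart from those of the genes.

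The receptor *PDGFRB* was set beside *PDGFRA*, which marks mesenchymal progenitors and fibroblasts, and beside the PDGF ligands. *PDGFRB* made up 98.2% of the TPM of the 2 receptors in pgEpiSCs-MPCs and 99.0% in pgEpiSCs-MCs, but 72.7% ± 1.90 in MPC-Dif. *PDGFRA* averaged 3.61 ± 0.687 TPM in pgEpiSCs-MCs and 239.6 ± 40.4 TPM in MPC-Dif (log2 difference -5.70 ± 0.15, adjusted p = 1.778e-13). *PDGFB*, the main ligand of PDGFRB, ran the other way, with 97.4 ± 4.52 TPM in pgEpiSCs-MCs and 2.31 ± 0.527 TPM in MPC-Dif (log2 difference 4.91 ± 0.15, adjusted p = 9.062e-13). *PDGFB* averaged 0.456 TPM in pgEpiSCs-high, 0.461 TPM in pgEpiSCs-Low and 12.7 ± 1.84 TPM in pgEpiSCs-MPCs (SD, n = 2). *PDGFD*, which also binds PDGFRB, averaged 20.9 TPM in pgEpiSCs-MCs and 51.6 TPM in MPC-Dif, and *PDGFC*, a ligand of PDGFRA, 18.1 TPM in pgEpiSCs-MCs and 45.3 TPM in MPC-Dif. *PDGFA* averaged 28.8 TPM in pgEpiSCs-MCs and 14.02 TPM in MPC-Dif.

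A list of 17 regulators of smooth muscle genes gave 9 higher and 4 lower in pgEpiSCs-MPCs, 13 higher and 1 lower in pgEpiSCs-MCs and 12 higher and 2 lower in MPC-Dif, each against pgEpiSCs. The list includes *TCF21* and *KLF2*, which passed the filter through MPC-Dif alone. Over all tested genes, 47.5% were called higher and 21.4% lower in pgEpiSCs-MPCs, 50.8% higher and 30.9% lower in pgEpiSCs-MCs, and 37.4% higher and 44.1% lower in MPC-Dif. The list's median log2 difference was 0.50 in pgEpiSCs-MPCs, where that of all tested genes was 0.24. It was 1.14 in pgEpiSCs-MCs, with 0.27 over all tested genes, and 1.74 in MPC-Dif, with -0.10 over all tested genes. Myocardin (*MYOCD*), the smooth and cardiac muscle coactivator of SRF, stayed low throughout. It averaged 1.45 ± 0.151 TPM in pgEpiSCs-MPCs (SD, n = 2), 1.42 ± 0.560 TPM in pgEpiSCs-MCs and 0.116 TPM in MPC-Dif. *MYOCD* was called higher in pgEpiSCs-MCs than in MPC-Dif (1.10 ± 0.16, adjusted p = 1.506e-05), as were 50.0% of all tested genes. The other coactivators were more abundant. *MRTFA* averaged 13.0 TPM in pgEpiSCs, 20.5 TPM in pgEpiSCs-MPCs, 27.0 TPM in pgEpiSCs-MCs and 13.5 TPM in MPC-Dif. *MRTFB* averaged 17.3 TPM in pgEpiSCs, 35.8 TPM in pgEpiSCs-MPCs, 22.5 TPM in pgEpiSCs-MCs and 15.75 TPM in MPC-Dif. *SRF* itself was highest in pgEpiSCs, with a mean of 72.7 TPM, and averaged 41.9 TPM in MPC-Dif. Against pgEpiSCs it was called lower in pgEpiSCs-MPCs (-0.20, adjusted p = 0.04765), pgEpiSCs-MCs (-1.26, adjusted p = 6.093e-10) and MPC-Dif (-0.78, adjusted p = 1.249e-07). *SRF* was also lower in pgEpiSCs-MCs than in pgEpiSCs-MPCs (-1.06 ± 0.09, adjusted p = 1.543e-07). Its means were 29.8 ± 3.18 TPM in pgEpiSCs-MCs and 63.1 TPM in pgEpiSCs-MPCs.

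In pgEpiSCs-MCs against MPC-Dif, 8 of the 17 regulators were called higher and 8 lower, beside 50.0% of all tested genes called higher and 29.1% lower. *KLF4*, known in smooth muscle as a repressor of contractile genes, was lower in pgEpiSCs-MCs by 3.98 on the log2 scale (adjusted p = 4.161e-10), with 7.73 TPM in pgEpiSCs-MCs and 137 ± 4.33 TPM in MPC-Dif. *GATA6* (-2.55) and *FOXF1* (-2.42), both factors of visceral or vascular smooth muscle, were also lower. *CSRP2*, a LIM protein that works with SRF, was higher in pgEpiSCs-MCs by 3.60, with means of 404.5 TPM in pgEpiSCs-MCs and 32.5 TPM in MPC-Dif.

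Of 25 other contractile and cytoskeletal genes of smooth muscle, each set against pgEpiSCs, 21 were called higher and 1 lower in pgEpiSCs-MPCs. Of all tested genes, 47.5% were called higher there and 21.4% lower. In pgEpiSCs-MCs 24 were higher and 0 lower, beside 50.8% and 30.9%, and in MPC-Dif 23 were higher and 1 lower, beside 37.4% and 44.1%. These counts include *PPP1R14A*, which passed the filter through pgEpiSCs-MCs alone. The largest differences in pgEpiSCs-MCs were those of *SYNPO* (5.37), an actin-associated protein, *ACTG2* (5.08), *ITGA8* (4.92), an integrin of smooth muscle and mesenchyme, and the intermediate filament genes *VIM* (3.92) and *DES* (3.75). The tropomyosin gene *TPM1* led in pgEpiSCs-MPCs (3.27). In pgEpiSCs-MCs against MPC-Dif, 6 of the 25 were higher and 15 lower (50.0% and 29.1% of all tested genes), among them *SYNPO* (1.54) on the higher side and *ITGA8* (-1.997), *SYNPO2* (-1.90) and *TGFB1I1* (-1.48) on the lower. In pgEpiSCs-high against pgEpiSCs-Low, 4 were higher and 12 lower (8.36% and 15.7% of all tested genes), led by *DES* (-1.64) and *TPM2* (-1.10).

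Signalling genes moved as well. Of 22 PDGF and TGF-beta pathway genes, each set against pgEpiSCs, 14 rose and 3 fell in pgEpiSCs-MPCs. Of all tested genes, 47.5% were called higher there and 21.4% lower. In pgEpiSCs-MCs 20 rose and 2 fell, beside 50.8% and 30.9%, and in MPC-Dif 18 rose and 2 fell, beside 37.4% and 44.1%. The matrix protein gene *TGFBI*, a target of TGF-beta, averaged 1449 ± 43.9 TPM in pgEpiSCs-MCs and 56.9 TPM in MPC-Dif (log2 difference 4.65). *CCN2*, a target of TGF-beta and YAP, averaged 101 TPM in pgEpiSCs-MPCs, 964 TPM in pgEpiSCs-MCs and 1174 TPM in MPC-Dif. The ligand gene *TGFB2* averaged 197 TPM in pgEpiSCs-MCs and 40.5 TPM in MPC-Dif, and *TGFB3* averaged 181 TPM in pgEpiSCs-MCs and 42.0 TPM in MPC-Dif. In pgEpiSCs-MCs against MPC-Dif, 8 of the 22 were higher and 10 lower (50.0% and 29.1% of all tested genes), and the latent TGF-beta binding protein *LTBP2* (-6.76) and the receptors *TGFBR2* (-3.50) and *TGFBR3* (-3.23) were among the lower.

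Mural and pericyte genes did not move as one set. Of 16 measured, 5 were called higher and 3 lower in pgEpiSCs-MPCs, 10 higher and 2 lower in pgEpiSCs-MCs and 8 higher and 4 lower in MPC-Dif, each against pgEpiSCs, while *PDGFRB* was higher in each of the 3. Beside these counts, 47.5% of all tested genes were called higher in pgEpiSCs-MPCs, 50.8% in the day 44 pgEpiSCs-MCs and 37.4% in MPC-Dif. The shares called lower were 21.4%, 30.9% and 44.1% in the same order. The summed TPM of the 16 genes was 175 to 191 in pgEpiSCs-MPCs, 469.5 to 489 in pgEpiSCs-MCs and 515 to 544 in MPC-Dif. This sum was 61.2 to 61.5 in pgEpiSCs-high and 94.5 to 103 in pgEpiSCs-Low. In pgEpiSCs-MCs against MPC-Dif, 8 were higher and 7 lower, beside 50.0% and 29.1% of all tested genes. The counts of these mural genes include *RGS5* and *FOXC2*, which passed the filter through MPC-Dif alone. *NOTCH3*, the Notch receptor of vascular smooth muscle, had 148 ± 6.28 TPM in pgEpiSCs-MCs and 8.50 ± 0.616 TPM in MPC-Dif (log2 difference 3.97 ± 0.08, adjusted p = 8.368e-15). *EDNRB*, an endothelin receptor also found in neural lineages, had 94.4 ± 3.14 TPM in pgEpiSCs-MCs and 0.167 TPM in MPC-Dif (6.36 ± 0.16, adjusted p = 1.094e-13). *RGS5*, a G protein regulator of pericytes, had 0.141 ± 0.150 TPM in pgEpiSCs-MCs and 23.9 ± 6.31 TPM in MPC-Dif; it was at or below 0.313 TPM in each library outside MPC-Dif and passed the filter through that group, so no test is given. *ANPEP*, the pericyte and fibroblast surface peptidase CD13, had 11.2 TPM in pgEpiSCs-MCs and 373 ± 14.6 TPM in MPC-Dif (-4.94). *CSPG4*, encoding the proteoglycan NG2, was present in both, with 23.8 ± 3.13 TPM in pgEpiSCs-MCs and 14.7 ± 1.45 TPM in MPC-Dif (0.65 ± 0.15, adjusted p = 0.001099).

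**Figure D4:**
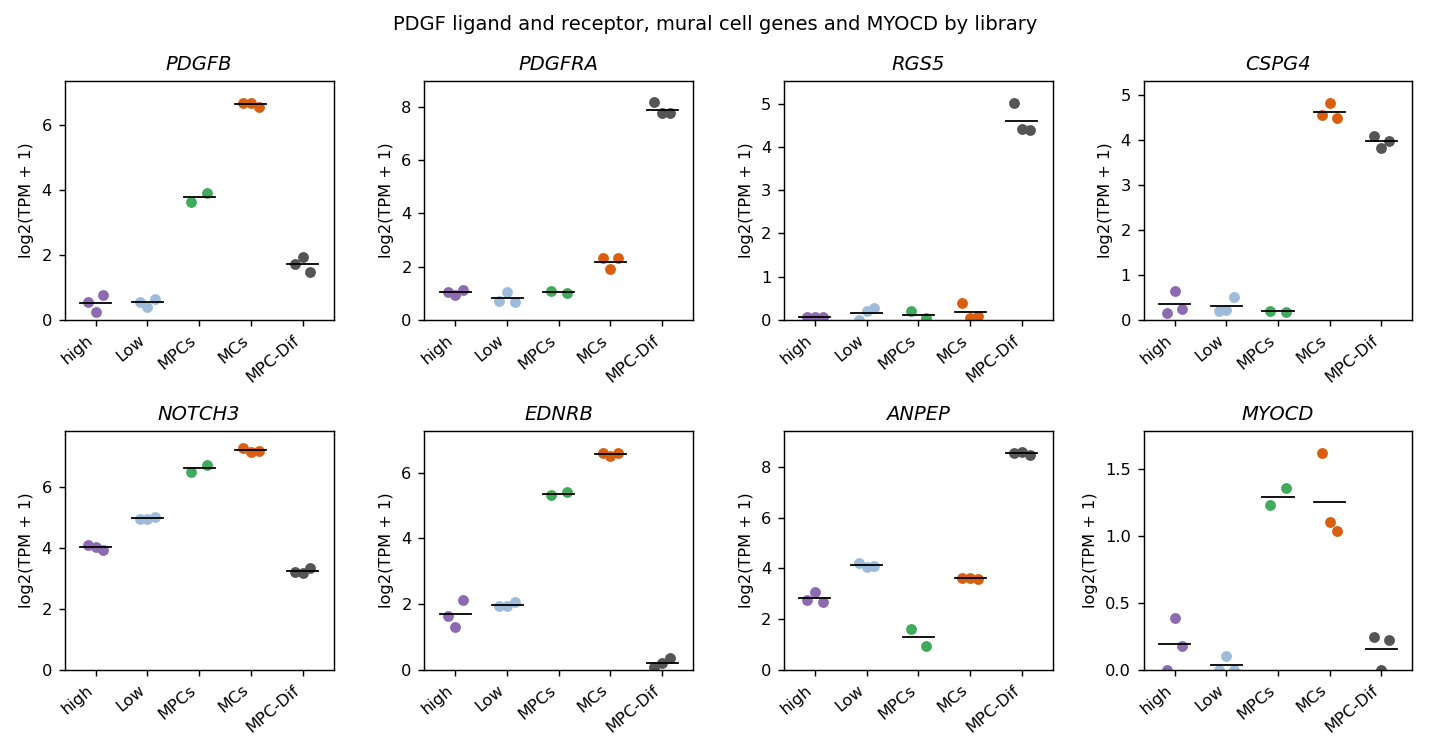
Levels of 8 mural and smooth muscle related genes in each library, as log2(TPM + 1); points are libraries and lines are group means. *PDGFB*, *NOTCH3*, *EDNRB* and *MYOCD* were higher in pgEpiSCs-MCs than in MPC-Dif, and *PDGFRA*, *RGS5* and *ANPEP* were lower.

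Markers of other cell types that use these genes moved with the groups. Of 13 fibroblast genes, each set against pgEpiSCs, 3 rose and 3 fell in pgEpiSCs-MPCs, beside 47.5% of all tested genes higher and 21.4% lower. In pgEpiSCs-MCs 10 rose and 0 fell, beside 50.8% and 30.9%, and in MPC-Dif 12 rose and 1 fell, beside 37.4% and 44.1%. These counts include *FAP*, *DPT* and *TCF21*, which passed the filter through MPC-Dif alone. The summed TPM of the 13 genes was 304 to 325 in pgEpiSCs-MPCs, 14960 to 16240 in pgEpiSCs-MCs and 26740 to 27710 in MPC-Dif, against 182 to 198.5 in pgEpiSCs-high and 198 to 228 in pgEpiSCs-Low. *COL1A1* averaged 6077 TPM in pgEpiSCs-MCs and 7595 TPM in MPC-Dif, whereas *DCN* averaged 15.2 TPM in pgEpiSCs-MCs and 2930 TPM in MPC-Dif. *FAP* averaged 0.092 TPM in pgEpiSCs-MCs and 425 TPM in MPC-Dif. In pgEpiSCs-MPCs, where *ACTA2* and *TAGLN* had already risen, *COL1A1* averaged 14.1 TPM, *DCN* 0.52 TPM and *FAP* 0.061 TPM, whereas *COL3A1* was called higher, with 84.6 TPM in pgEpiSCs-MPCs and 3.59 TPM in pgEpiSCs (adjusted p = 3.272e-08), as was *FBLN1*, with 187 TPM in pgEpiSCs-MPCs and 134 TPM in pgEpiSCs (adjusted p = 1.131e-05). Skeletal muscle genes, 15 measured, summed to 58.2 to 68.7 TPM in pgEpiSCs-MPCs, 457 to 488 TPM in pgEpiSCs-MCs and 867 to 940.1 TPM in MPC-Dif, against 16.8 to 29.9 TPM in pgEpiSCs.

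Neural genes stood out in the cells derived from pgEpiSCs. The sum of 8 was 2154 to 2191 TPM in pgEpiSCs-MPCs and 2357 to 2507 TPM in pgEpiSCs-MCs, against 210 to 223 TPM in MPC-Dif. In pgEpiSCs-high the sum was 399.9 to 474 TPM, and in pgEpiSCs-Low 523 to 547 TPM. Much of the pgEpiSCs-MPCs sum was *ZIC1*, at 1048 and 1094 TPM, and *NES*, at 700 and 691 TPM. In pgEpiSCs-MPCs against pgEpiSCs, 7 of the 8 were called higher and 1 (*TUBB3*) lower, beside 47.5% and 21.4% of all tested genes. In pgEpiSCs-MCs against MPC-Dif, 8 of 8 were called higher, beside 50.0% of all tested genes. *STMN2* of neurons averaged 321 TPM in pgEpiSCs-MCs and 0.455 TPM in MPC-Dif. A shared direction is common in this comparison, where 50.0% of all tested genes were called higher and 29.1% lower. *CNN1*, *MYH11*, *TAGLN*, *EDNRB*, *NOTCH3*, *PDGFB* and *CSPG4* were higher in pgEpiSCs-MCs, like the neural genes. *LMOD1*, *MYLK*, *PDGFRB*, *MYL9*, *SMTN*, *RGS5*, *PDGFRA* and *ANPEP* were lower there, like *DCN* and *FAP*. The fibroblast gene *FBLN1* ran against *DCN* and *FAP*, with 200 TPM in pgEpiSCs-MCs and 98.3 TPM in MPC-Dif. Endothelial genes, of the other cell type of the vessel wall, summed to 7.26 to 16.9 TPM over 7 genes in every library. Within this sum they moved apart: *PECAM1* averaged 10.1 TPM in MPC-Dif and 0.969 TPM in pgEpiSCs (adjusted p = 1.2e-10), *TIE1* averaged 0.162 TPM in MPC-Dif and 10.4 TPM in pgEpiSCs (adjusted p = 2.483e-12), and *CDH5* averaged 0.993 TPM or less in each group. The part of these other cell types in the levels of the 9 genes was not tested.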

How the data were processed

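RNA was captured by its poly-A tail, made into libraries with a VAHTS kit and sequenced in pairs. The authors' reads were trimmed (Trim Galore 0.6.6) and mapped with HISAT2 2.1.0 to the Sscrofa11.1 genome; exon counts came from featureCounts 2.0.1, and the deposited TPM values were computed in R. Strand and multiple-match settings were not given. The 2209 rows named by Ensembl identifier were matched to RefSeq symbols, with 608 matched. The 9 genes and the gene lists were chosen with earlier results of these data known. The 14957 genes above 0.5 TPM in at least 0.5 of the libraries of a group were fitted as log2(TPM + 1), with 1 mean per group over 14 libraries, in limma 3.58.1 (lmFit, eBayes with trend, two-sided moderated test, R 4.3.3), with Benjamini-Hochberg adjustment per contrast over all tested genes. The study's own count test could not be used on TPM. List genes were named from the 6 called ones with the largest log2 difference per comparison, not all of which are given. Those that passed the filter through 1 group alone are given no test of their own but stay in the counts of their list. *MYOCD*, *SRF*, *MRTFA*, *MRTFB*, *CSPG4*, *KCNJ8*, *MCAM*, the markers of other cell types and levels in a further group were chosen for their role. Some of these were chosen after their values were seen. Relatives of the 9 genes that were analysed are named whatever their values. The family shares leave out the relatives that were not analysed. Promoters and positions came from the RefSeq annotation of Sscrofa11.1, figures from matplotlib 3.10.9, and tables from Python 3.11.15 with pandas 2.3.3. Replicate numbers did not pair libraries across groups. Alternatives changed the pseudocount, filter, scaling, trend, libraries fitted, passage of reference, block and each library in turn. The *TAGLN* promoter and 1 gene list are not reported here.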

Additional observations from a re-analysis of the deposited data

How the results depend on the processing

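Of the 63 gene-by-comparison differences of the 9 members, each kept its direction and its side of the threshold with pseudocounts of 0.1 and 0.5, with a filter at TPM above 2 (13432 genes tested), with no filter (15027 genes tested), and without the intensity trend. With the replicate number as a block the same held, and the members called lower in pgEpiSCs-MCs against pgEpiSCs were 0, as without it; same-numbered libraries of different groups correlated at -0.151 to 0.126, and 2 of 14 libraries correlated best with their own number, so the numbers do not pair the libraries. The median log2 difference over all genes in pgEpiSCs-MPCs against pgEpiSCs was 0.24 as deposited, 0.00 under median of ratios, -0.05 under quantile scaling and 0.16 with the 13 mitochondrial genes left out. The members called lower in pgEpiSCs-MCs against pgEpiSCs numbered 1 (*SMTN*) under each of these scalings and against pgEpiSCs-Low alone, and ranged from 0 to 1 when single libraries were left out. *CNN1* in MPC-Dif against pgEpiSCs turned to -0.016 without mitochondrial genes and -0.25 against pgEpiSCs-Low alone. *MYH11* in the same comparison turned to -0.044 without mitochondrial genes and -0.0099 against pgEpiSCs-high alone, and ranged between -0.0046 and 0.14 when single libraries were left out. In pgEpiSCs-MCs against MPC-Dif, *ACTA2* turned to 0.0084 under quantile scaling and *TAGLN* to -0.066 under median of ratios. In pgEpiSCs-MPCs against MPC-Dif, *TAGLN* lost its call under quantile scaling (-0.08), *MYL9* turned to -0.17 under median of ratios, and *SMTN* turned to -0.25 under median of ratios and -0.16 under quantile scaling and was called higher without mitochondrial genes (0.32). *LMOD1* in pgEpiSCs-high against pgEpiSCs-Low ranged between -0.13 and 0.068 when single libraries were left out, positive without pgEpiSCs-Low replicate 3. The cause of these turns was not tested. Groups of 2 or 3 libraries and an unknown depth limit the precision, also for the low levels of *LMOD1* and *MYH11* in pgEpiSCs and *MYOCD* in every group.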
